A study of Mus musculus with 32 samples.

Results

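Expression of 10 genes that mark Kupffer cells or the liver sinusoid was followed in 32 bulk RNA sequencing libraries of mouse liver tumours. They were taken from a list written by name, and all 10 were found among the 54446 gene rows of each count table. The 6 Kupffer cell genes were Clec4f, Timd4, Vsig4, Marco, Cd5l and Fcna. The 4 sinusoid genes were Stab2, Clec4g, Lyve1 and Oit3. All 10 passed the filter on low counts in every fit.

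Cells of BNL-MEA, a liver cancer line from the mouse, had been injected under the capsule of the left liver lobe of BALB/c mice. Every group, vehicle included, carried the resulting tumour, and no library of liver without tumour was analysed here. In the dose and DC-101 experiments treatment lasted 5 days, as far as the methods tell, whereas the day of collection in the anti-PD1 experiment is not given in the sources used here. In the dose experiment, 4 vehicle libraries stood beside 3 of mice on 5 mg/kg/day of regorafenib, called the low dose, and 3 on 20 mg/kg/day, the high dose. Regorafenib is a drug taken by mouth that blocks kinases such as the VEGF receptors. The DC-101 experiment had 4 vehicle, 3 low dose and 3 DC-101 libraries. DC-101 is an antibody that blocks VEGFR2 of the mouse, and was injected on days 1, 3 and 5 at 800 ug. The anti-PD1 experiment had 3 libraries in each of 4 groups. These were vehicle, low dose, an antibody to PD1, and the low dose of regorafenib together with that antibody (the combination). Since the labels call each experiment a batch, treatments were compared inside an experiment, and the low dose also across the 3. The labels do not say whether each library came from a separate mouse, so p-values measure the spread between these libraries, which may be technical in part.

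The liver sinusoid is a capillary with an open wall, through which blood passes between plates of hepatocytes. Its lining is made by sinusoidal endothelial cells, scavenger cells that take up waste from the blood through receptors such as stabilin-2. Kupffer cells are the macrophages that live inside this capillary. They settle in the liver before birth, renew themselves there and clear bacteria and dead cells from the blood. Both cell types acquire their identity from the liver around them, and the genes that distinguish them from other macrophages and other endothelium are widely used to recognise them. A tumour growing in the liver draws its macrophages and vessels partly from elsewhere, and its sample can hold some of the surrounding liver. Alb, the gene of serum albumin, was used as the measure of liver tissue in a library, since hepatocytes are its main source. Fewer cells of a type and less of an RNA in each cell cannot be told apart in such bulk samples.

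Clec4f encodes a C-type lectin that in mice is largely restricted to Kupffer cells, and lies on the minus strand of chromosome 6 between 83644542 and 83656187 (GRCm38). Timd4 encodes a receptor for phosphatidylserine on dead cells and lies on chromosome 11 between 46810800 and 46844332. Vsig4 encodes a complement receptor (chromosome X, 96247203 to 96293438). Marco is a scavenger receptor that binds bacteria (chromosome 1, 120474538 to 120505024). Cd5l encodes a secreted protein of tissue macrophages (chromosome 3, 87357881 to 87371073). Fcna encodes ficolin A, a secreted lectin of the complement system (chromosome 2, 25624666 to 25628030). Timd4, Marco, Vsig4 and Cd5l are also known from macrophages of other tissues.

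Among the sinusoid genes, Stab2 encodes stabilin-2, the hyaluronan receptor of the sinusoidal wall (chromosome 10, 86841198 to 87008025). Clec4g encodes the lectin LSECtin (chromosome 8, 3707064 to 3720651). Lyve1 encodes another hyaluronan receptor, which lymphatic endothelium and some macrophages carry too (chromosome 7, 110850607 to 110863239). Oit3 encodes a secreted protein and is described from hepatocytes as well as from sinusoidal endothelium (chromosome 10, 59422958 to 59441778). Annotated genes on the opposite strand overlap Fcna, Stab2 and Clec4g. The kit kept strand, but the strand column that was counted is not stated, so reads of those overlaps may be shared.

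RefSeq promoters of 300 bases (GRCm38.p6), from 250 before to 50 after the start, were held for 8 of the 10, all but Lyve1 and Oit3. Those of 2 Kupffer cell and 2 sinusoid genes are shown, since these 4 genes followed Alb in the libraries and can be compared between the cell types. Capitals mark GAGGAA, the core bound by the macrophage factor PU.1, and TGCTGA, the core of MAF sites, on either strand.
Clec4f, minus strand, chr6:83656067-83656366: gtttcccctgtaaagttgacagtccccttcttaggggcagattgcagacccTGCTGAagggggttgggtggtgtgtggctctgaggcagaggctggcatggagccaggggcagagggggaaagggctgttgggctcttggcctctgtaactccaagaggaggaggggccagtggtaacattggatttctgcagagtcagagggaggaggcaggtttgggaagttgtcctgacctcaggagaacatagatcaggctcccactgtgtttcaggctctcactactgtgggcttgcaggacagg
Cd5l, plus strand, chr3:87357631-87357930: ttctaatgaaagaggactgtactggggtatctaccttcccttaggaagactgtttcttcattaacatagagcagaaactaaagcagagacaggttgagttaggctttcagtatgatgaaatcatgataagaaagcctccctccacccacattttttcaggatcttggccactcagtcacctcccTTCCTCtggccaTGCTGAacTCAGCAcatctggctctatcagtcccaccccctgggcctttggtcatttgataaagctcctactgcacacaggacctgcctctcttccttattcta
Stab2, minus strand, chr10:87007893-87008192: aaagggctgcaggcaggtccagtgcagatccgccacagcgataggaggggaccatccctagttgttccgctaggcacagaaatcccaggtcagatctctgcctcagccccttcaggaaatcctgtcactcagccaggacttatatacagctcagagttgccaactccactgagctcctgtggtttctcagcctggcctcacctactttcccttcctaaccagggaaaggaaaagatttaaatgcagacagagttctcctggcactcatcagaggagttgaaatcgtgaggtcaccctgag
Clec4g, minus strand, chr8:3720602-3720901: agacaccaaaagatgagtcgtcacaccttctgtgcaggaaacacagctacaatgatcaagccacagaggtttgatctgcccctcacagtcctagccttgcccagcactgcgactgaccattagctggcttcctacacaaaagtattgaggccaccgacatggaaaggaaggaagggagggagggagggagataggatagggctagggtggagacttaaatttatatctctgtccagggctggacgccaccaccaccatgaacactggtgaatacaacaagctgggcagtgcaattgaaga

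The MAF core TGCTGA was in 5 of the 8 promoters (Clec4f, Timd4, Vsig4, Cd5l and Fcna), all of Kupffer cell genes, and in 19.5% of 32851 RefSeq promoters of that length. The PU.1 core GAGGAA was in 4 (Vsig4, Marco, Cd5l and Fcna), against 28.3% of all promoters. Neither was in Stab2 or Clec4g. Of the other 6 motifs searched, again on both strands, TGGGAA was in 3 member promoters (25.6% of all), GGAAGT in 4 (23.8%), TGACC in 6 (40.5%), TATAAA in 1 (13.6%), TGATAA in 1 (9.05%) and AGATAA in none (11.2%). Matches of different motifs can overlap, the motifs were chosen with results of these data known, and with 8 promoters the counts are a description only.

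The libraries held 16.8 M to 27.7 M counts. Levels are given as log2 CPM, the count relative to a library total scaled by TMM, which evens out libraries by their bulk of unchanged genes. Alb ranged from 3.47 to 14.77 log2 CPM, that is from 11 to 27900 CPM. Alb was already unequal between groups: it lay between 12.39 and 12.58 in the 3 vehicle libraries of the anti-PD1 experiment, and between 3.47 and 11.38 in the 4 vehicle libraries of the DC-101 experiment. It fell below 5 in 3 libraries, vehicle replicates 1 and 4 and DC-101 replicate 1 of the DC-101 experiment. Mitochondrial transcripts took 0.26% to 5.37% of the counts, with the top value in high dose replicate 1, which also had the highest Alb.

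All 10 genes were low, and all spread widely. Per kilobase of exon, the median over the 32 libraries was highest for Fcna (5.02 CPM per kb), followed by Clec4f (3.89), Cd5l (3.82), Vsig4 (3.15), Lyve1 (2.99), Oit3 (1.27), Stab2 (0.951), Clec4g (0.826), Timd4 (0.749) and Marco (0.164). Alb stood at 706 on the same scale. Each gene spread over its libraries by more than the distance between neighbours in this order, which therefore is a description. The SD within groups was 2.5 log2 units for Clec4f, 2.2 for Clec4g and 2.07 for Cd5l, and between 1.43 (Marco and Fcna) and 1.93 (Stab2) for the others. That of Alb was 2.42. Marco was at or under 3 counts in 7 libraries, Clec4g in 5, and Clec4f and Timd4 in 3 each.

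**Figure D1:**
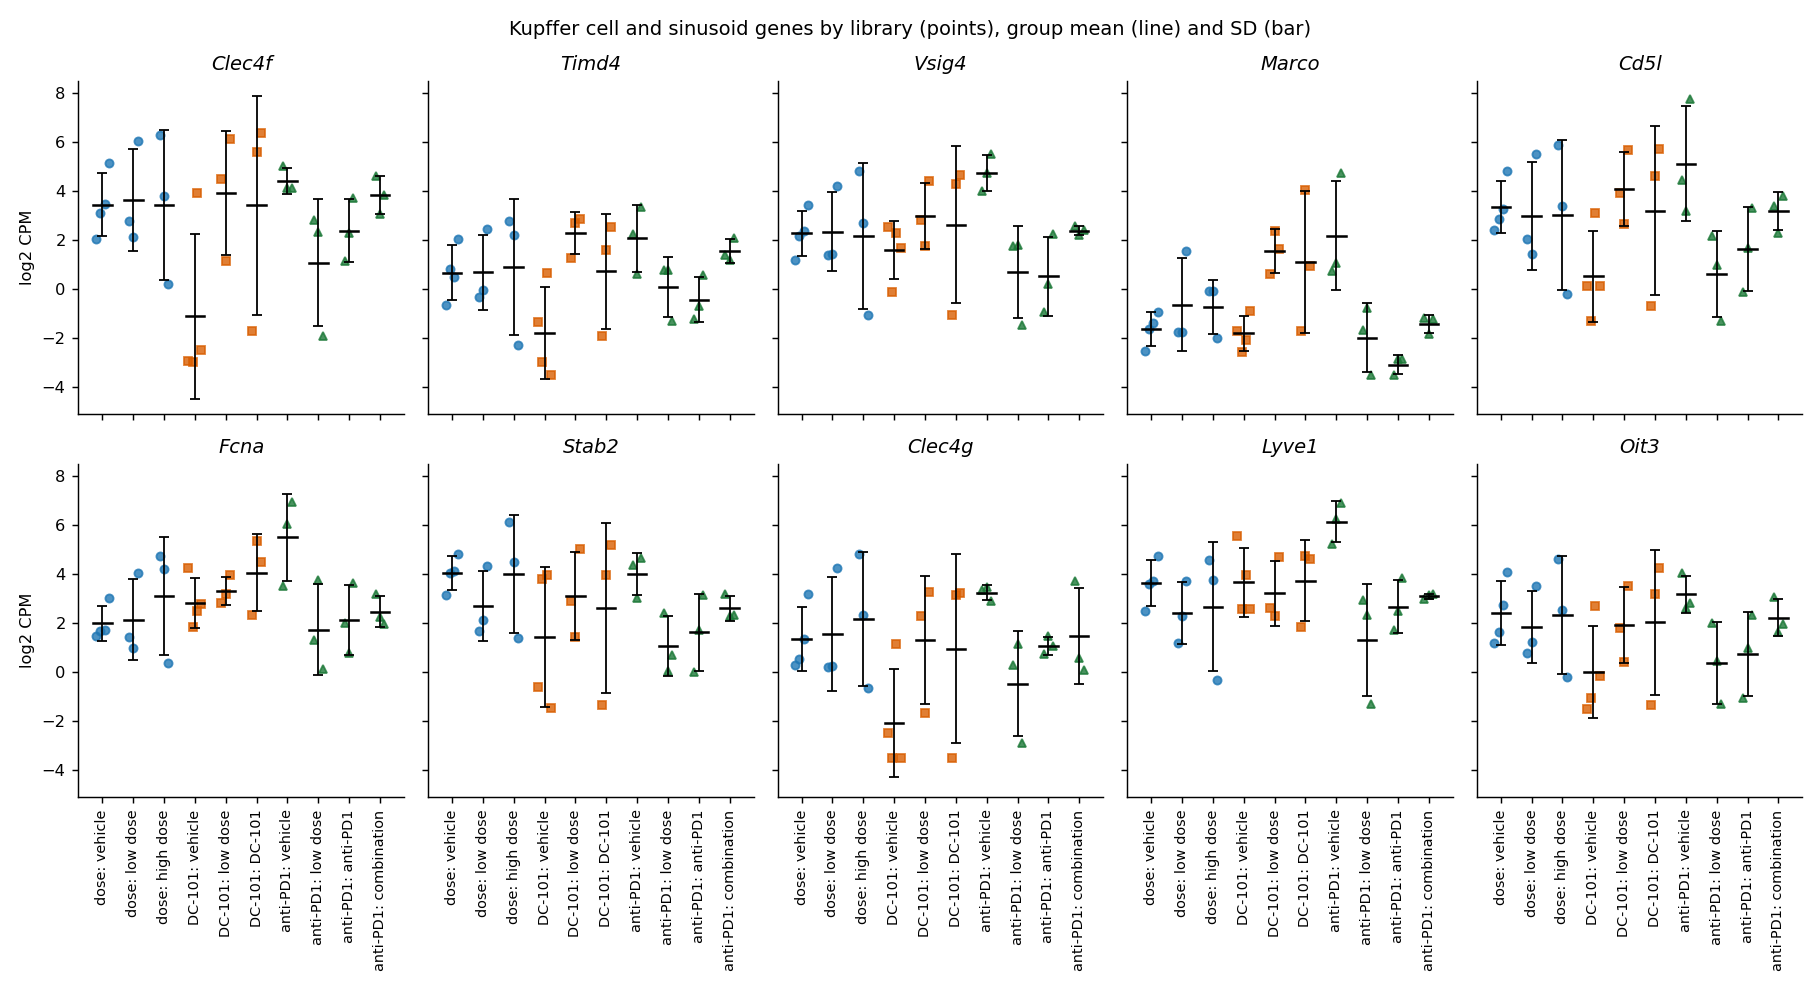
Level of the 10 genes (log2 CPM, scaled by TMM within each experiment) in the 10 groups. Points are libraries, horizontal lines group means and bars ± SD. The spread inside a group is as large as most differences between groups, as for Clec4f among the vehicle libraries of the DC-101 experiment, from -2.98 to 3.89.

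Clec4f gave the clearest picture of this spread. In the dose experiment it was 2.04, 3.09, 3.44 and 5.13 log2 CPM in the vehicle libraries, 2.76, 2.12 and 6.01 at the low dose, and 6.29, 3.77 and 0.2 at the high dose. The 3 groups overlapped, and the high dose group held the highest and the lowest of these libraries. In the DC-101 experiment it was -2.93, -2.98, 3.89 and -2.5 in the vehicle libraries, which for the low values means 1, 1 and 2 counts. The low dose libraries of that experiment had 4.48, 1.15 and 6.11, and the DC-101 libraries -1.72, 5.57 and 6.36, so that the top library of every group lay far above its lowest. In the anti-PD1 experiment the vehicle libraries had 5.02, 4.1 and 4.11, the low dose libraries 2.79, 2.33 and -1.91, the anti-PD1 libraries 1.12, 2.29 and 3.7, and the combination libraries 4.61, 3.04 and 3.81. Here the vehicle libraries lay above all low dose and anti-PD1 libraries but not above the combination.

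Libraries of 1 group that had more Alb also had more of most of the 10 genes. To measure this, each gene was fitted on the Alb log2 CPM of its library with a term for every group, so that only differences inside groups counted. A slope of 1 means that a doubling of Alb goes with a doubling of the gene. Over the 32 libraries, 7 of the 10 genes passed (edgeR quasi-likelihood F-test, adjusted p under 0.05 over 17995 genes), all with a rising slope, whereas 7.59% of all genes did so. The median slope was 0.6 for the 10 genes and 0 for all genes. Since the 10 genes were listed with earlier results of these data known, these comparisons with all genes are a description.

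The Kupffer cell lectin Clec4f rose by 1.17 log2 units per log2 unit of Alb (SE 0.09, adjusted p = 4.62e-10), and the sinusoidal lectin Clec4g by 1.25 (SE 0.12, 1.03e-08). These were the steepest slopes of the 10. Stab2 had a slope of 0.8 (SE 0.08, adjusted p = 2.73e-08), Cd5l of 0.7 (SE 0.13, 0.000242) and Oit3 of 0.65 (SE 0.09, 7.69e-06). Vsig4 (0.55, SE 0.13, adjusted p = 0.00685) and Timd4 (0.52, SE 0.11, 0.00185) passed as well. Vsig4 did not pass without DC-101 replicate 1 (0.45, adjusted p = 0.115), without the dose experiment (0.39, 0.289) or without the anti-PD1 experiment (0.5, 0.0763). The other 3 genes had positive slopes that did not pass: Marco 0.35 (SE 0.16, adjusted p = 0.339), Lyve1 0.3 (SE 0.12, 0.199) and Fcna 0.28 (SE 0.12, 0.29). Lyve1 passed when the DC-101 experiment's vehicle replicate 1 (0.39, adjusted p = 0.00311) or 3 (0.41, 0.0378) was left out. All 3 also passed by DESeq2 (adjusted p = 0.0363 for Marco, 0.013 for Lyve1 and 0.0366 for Fcna), and by edgeR without the 2 libraries farthest in Alb (0.0183, 0.000625 and 0.00546). Over all genes, DESeq2 called 1663 and edgeR 1374 with all libraries. Without the whole DC-101 experiment they passed as well, with 0.96 for Marco (adjusted p = 0.0123), 0.94 for Fcna (0.00134) and 0.89 for Lyve1 (0.00137). Differences between the slopes of 2 genes were not tested.

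**Figure D2:**
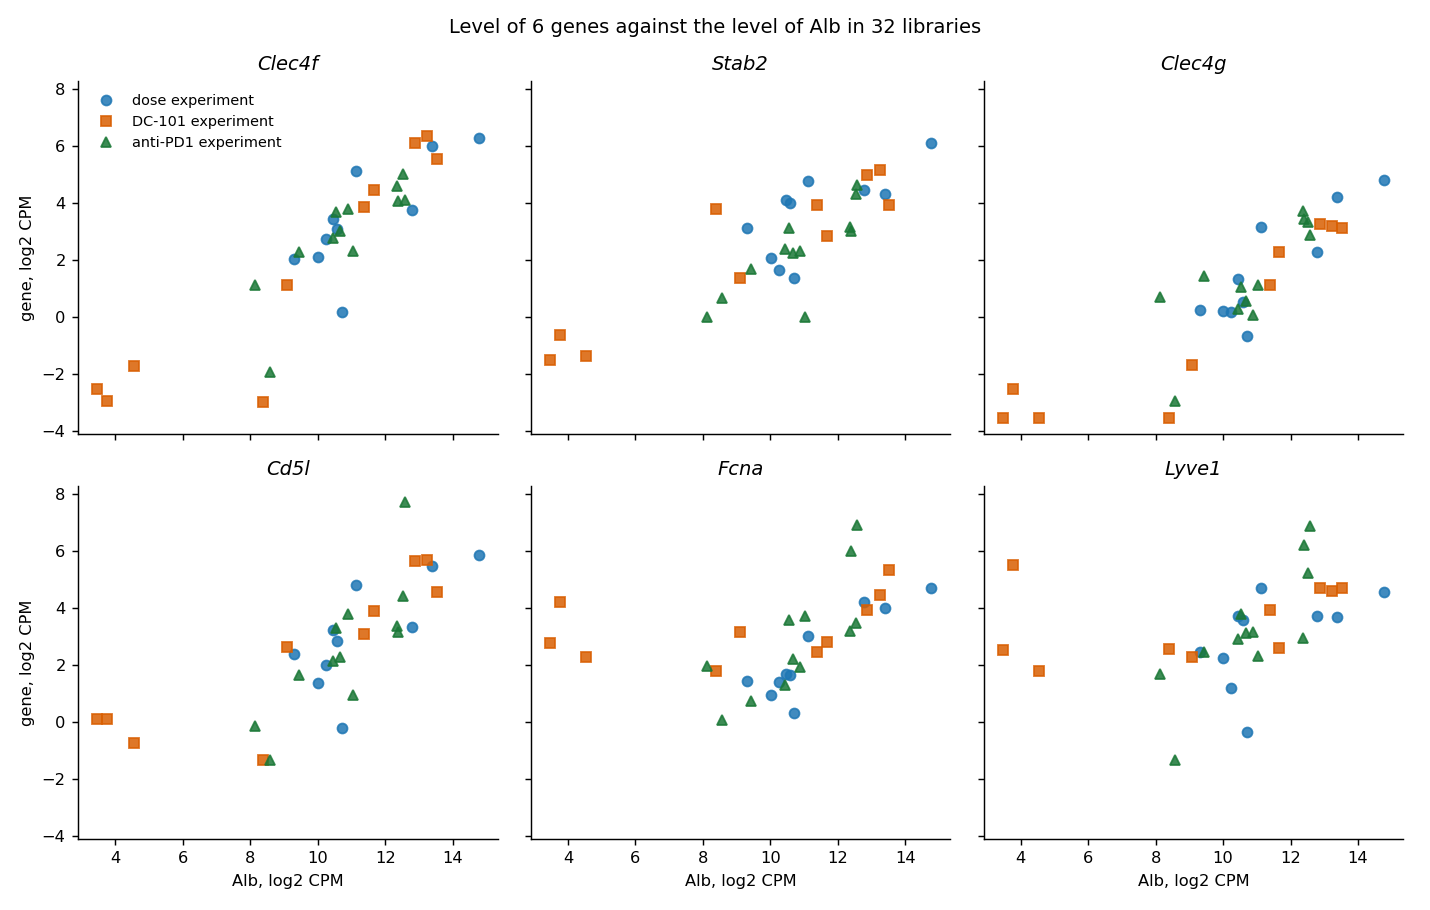
Log2 CPM of 6 genes against the log2 CPM of Alb. Each point is 1 of 32 libraries, with circles for the dose, squares for the DC-101 and triangles for the anti-PD1 experiment. Clec4f, Stab2 and Clec4g tend to be higher in libraries with more Alb. Fcna and Lyve1, in contrast, are still at 1.82 or above in the 3 libraries with Alb below 5. Clec4f and Clec4g do not rise evenly. At an Alb of 8.39, vehicle replicate 2 (DC-101 experiment) has them at -2.98 and -3.52. At an Alb of 8.13, anti-PD1 replicate 1 (anti-PD1 experiment) has them at 1.12 and 0.71.

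The correlation of deviations from the group means over the 32 libraries is given as a description, since all genes of a library share its scaling. Stab2, Clec4f and Clec4g again came first, though in another order, and Fcna again last. Pearson's r with Alb was 0.91 for Stab2, 0.89 for Clec4f, 0.85 for Clec4g, 0.83 for Oit3, 0.75 for Cd5l, 0.71 for Timd4, 0.68 for Vsig4, 0.54 for Lyve1, 0.46 for Marco and 0.43 for Fcna. Between the members themselves, r was above 0 in all 45 pairs, with a median of 0.75. The closest pairs crossed the cell types: Clec4f with Oit3 (r = 0.95) and Clec4f with Clec4g (r = 0.94). The most distant were Fcna with Stab2 (0.37) and Marco with Stab2 (0.38).

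The genes nearest to Clec4f among 14042 genes were Colec10 (r = 0.97), Colec11 (0.96), Apom (0.96), Ttpa (0.95) and the member Oit3 (0.95). Colec10 and Colec11 encode secreted collectins, and Apom and Ttpa are hepatocyte genes. The nearest to Stab2 were Reln (r = 0.97), Abcc2, Chdh, Pzp and Mst1 (0.96 each). Reln encodes a secreted matrix protein, Abcc2 a transporter of the bile canaliculus, Pzp a plasma protease inhibitor and Mst1 the hepatocyte growth factor-like protein.

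The 3 libraries with the least Alb separated the members. There, Clec4f was at 1, 2 and 5 counts and Clec4g at 2, 0 and 0 counts in vehicle replicate 1, vehicle replicate 4 and DC-101 replicate 1. Stab2 was at 13, 6 and 7 counts, its 3 lowest log2 CPM in the series (-0.61, -1.49 and -1.36). Both lectin genes were thus close to the floor of 3 counts. Fcna, in contrast, was at 4.22, 2.78 and 2.3 log2 CPM in the same libraries, against a median of 2.82 over the other 29. Lyve1 was at 1056, 128 and 80 counts (5.54, 2.55 and 1.82 log2 CPM), against a median of 3.16. Vsig4 was uneven, at 2.53, 1.67 and -1.07 log2 CPM. Fcna and Lyve1 RNA was therefore present in tumours with little Alb RNA and few or no counts of Clec4f and Clec4g.

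Vehicle replicate 2 of the DC-101 experiment parted the members in another way. With Alb at 8.39 log2 CPM, it had 350 counts of Stab2 (3.79 log2 CPM), close to the level of vehicle replicate 3 (3.95) with Alb at 11.38. It had 1 count of Clec4f, 1 of Timd4, 2 of Marco and 8 of Cd5l. Clec4g had 0 counts, which allows up to 3, and Oit3 had 10. This library was thus low in most Kupffer cell genes and in Clec4g and Oit3, but not in Stab2. Vsig4 (21 counts, -0.14 log2 CPM) and Fcna (87 counts, 1.81 log2 CPM) were at the lowest level of their vehicle group there. Lyve1 (149 counts, 2.57 log2 CPM) was close to the lowest of its group (2.55).

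The anti-PD1 experiment held a library that stood apart at the upper end. Its vehicle replicate 3 had the highest level of the 32 libraries for Cd5l (7.73 log2 CPM, 4763 counts), Fcna (6.92), Lyve1 (6.89), Vsig4 (5.48), Marco (4.73) and Timd4 (3.33). Its Alb was at 12.58 against 12.53 and 12.39 in vehicle replicates 1 and 2, its Clec4f at 4.11 against 5.02 and 4.1, and its Clec4g at 2.89 against 3.34 and 3.45, so Clec4f, Clec4g and Alb did not stand out. Markers of peritoneal macrophages moved with it: the summed level of 5 genes (Alox15, Gata6, Icam2, Prg4 and Selp) was 182 CPM there, 33.9 and 20.8 CPM in vehicle replicates 1 and 2, and at most 111 CPM in the other libraries. None of the 5 was at or under 3 counts throughout a group. The part of these cells in the result was not tested.

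Over the 3 experiments, no slope on Alb passed for genes that macrophages or vessels in general express. By edgeR, none of 12 general macrophage genes passed (median slope -0.03), with the smallest p for Cd68 (-0.04, adjusted p = 0.521), a lysosomal protein of macrophages. Of 10 monocyte and tumour macrophage genes none did (median 0.01, with Arg1 at 0.27, adjusted p = 0.393). None of 12 general endothelial genes passed (Kdr, the gene of VEGFR2, slope 0.08, adjusted p = 0.518) and none of 6 capillary genes (Vwf, 0.26, 0.211). At an unadjusted p under 0.05 the counts in these 4 lists were 0, 0, 0 and 2. All 13 hepatocyte genes other than Alb passed, with a median slope of 0.97.

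Other genes known from the same cells were split. Of 13 tested Kupffer cell genes outside the 10, 5 rose with Alb: Nr1h3 (slope 0.22, adjusted p = 0.00594), Spic (0.33, 0.00292), C6 (0.78, 1.19e-07), which encodes a complement component, Clec1b (0.85, 1.34e-05), a C-type lectin receptor, and Slc40a1 (0.58, 2.06e-05), the iron exporter ferroportin. Siglec1 (-0.05, adjusted p = 0.678) and Folr2 (-0.04, 0.899) were among those that did not pass, and were chosen after their values were seen. Of 19 tested sinusoidal genes, 7 rose, among them Rspo3 (0.64, adjusted p = 4.6e-07), a Wnt enhancer of the central vein region, Gpr182 (0.63, 1.58e-06) and the transcription factor gene Gata4 (0.71, 1.51e-05). Stab1 (-0.09, adjusted p = 0.104) and Mrc1 (-0.08, 0.437), both scavenger receptors, were among those that did not pass, and were picked in the same way. The medians of these 2 lists were 0.2 and 0.23. Of 8 stellate cell genes 4 passed, among them Reln (0.88, adjusted p = 3.69e-08), Colec11 (0.84, 1.13e-07) and Lrat (1.1, 3.59e-07), the enzyme that stores vitamin A. Of 5 lymphatic genes the 2 that passed were Prox1 (0.79, adjusted p = 1.77e-08), also a hepatocyte factor, and Reln. Prg4 was the 1 of 5 peritoneal macrophage genes that passed (0.48, adjusted p = 0.00532), Spic again and Treml4 (0.3, 0.00944) were the 2 of 4 red pulp and marginal zone genes, and no cholangiocyte gene did so (Anxa13, 0.29, 0.0742).

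**Figure D3:**
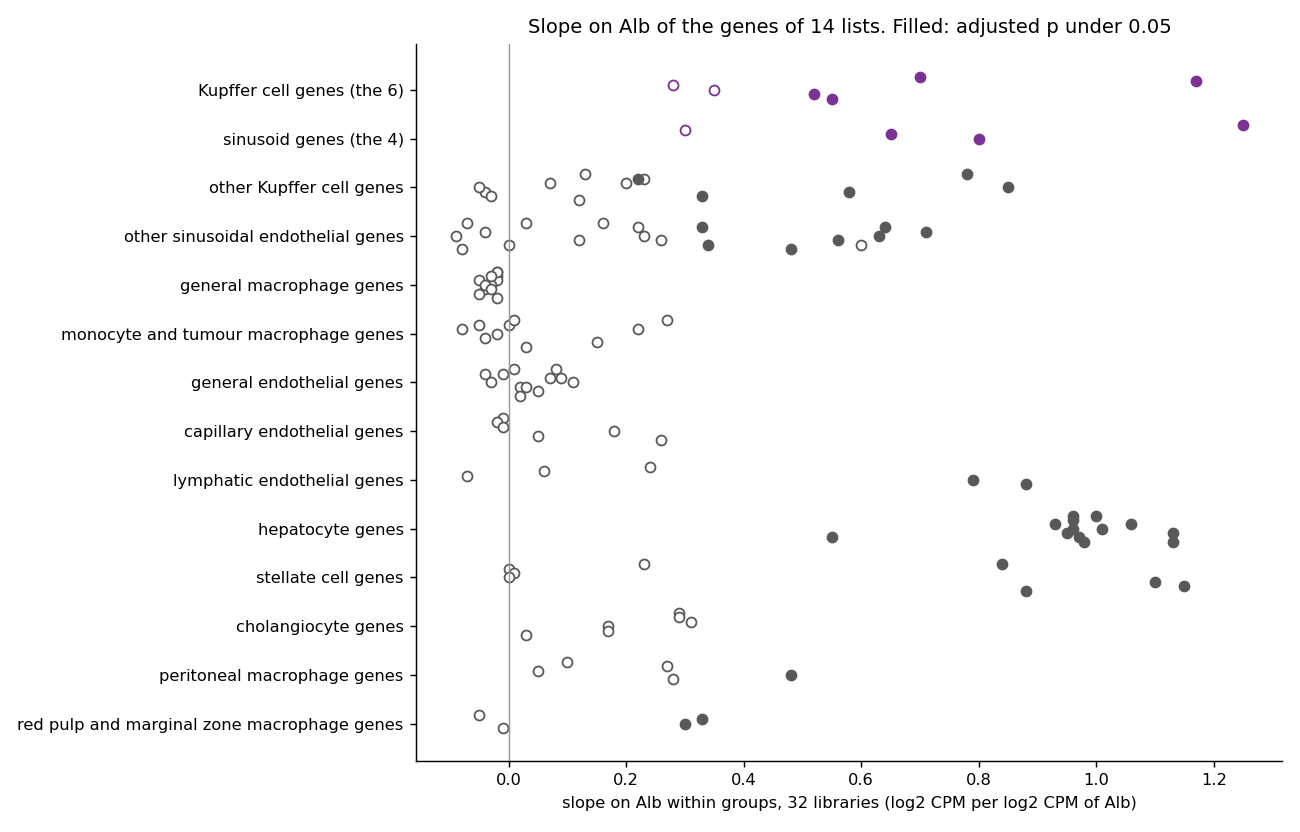
Slope on Alb within groups (log2 CPM per log2 CPM of Alb, 32 libraries) for the tested genes of the lists. Each point is a gene, filled where its adjusted p is under 0.05. The 10 genes, in the top 2 rows, lie between 0.28 and 1.25, the general macrophage genes close to 0 and the hepatocyte genes near 1.

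The slope was then taken in each experiment alone. In the dose experiment all 10 genes passed, against 13.7% of genes rising with Alb, with slopes from 0.88 (Lyve1, SE 0.18, adjusted p = 0.00868) to 1.35 (Clec4f, SE 0.12, 3.67e-05, and Clec4g, SE 0.13, 5.59e-05). Fcna had a slope of 0.93 there (SE 0.15, adjusted p = 0.00211) and Marco of 0.91 (SE 0.16, 0.00313). Without low dose replicate 3 that of Marco was 0.64 (adjusted p = 0.0608). Mitochondrial transcripts rose with Alb in this experiment too, 6 of 9 past the threshold (median slope 0.38), led by mt-Nd2 (0.49, adjusted p = 0.00632). So did Prg4 (0.65, adjusted p = 0.00793) and Gata6 (0.62, 0.0111) of the 5 peritoneal macrophage genes. Of 9 monocyte and tumour macrophage genes, Arg1 rose (0.9, adjusted p = 0.00124) and Plac8 fell (-0.21, 0.0461). The part of these in the slopes of the 10 genes was not tested. In the DC-101 experiment 4 genes passed, against 3.63% of genes: Clec4f (1.09, SE 0.13, adjusted p = 0.00128), Clec4g (1.06, SE 0.17, 0.00609), Stab2 (0.76, SE 0.1, 0.0022) and Oit3 (0.53, SE 0.1, 0.0231). Clec4f and Stab2 were the 2 that did so when vehicle replicate 3 or DC-101 replicate 1 was left out (489 and 346 genes). Fcna was at 0.06 (SE 0.12, adjusted p = 0.992) and Lyve1 at 0.14 (SE 0.16, 0.982).

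In the anti-PD1 experiment the slopes ran from 0.74 (Timd4, SE 0.33) to 1.31 (Clec4g, SE 0.36), but none passed. There 5 of 16614 genes did, all rising (0.0301%). By DESeq2 5 of the 10 genes passed in that experiment, and 348 genes in all. At an unadjusted p under 0.05 it was 7 of the 10 genes, against 4.16% of all genes. A test of whether the slope differed between the experiments was added after the slopes had been seen, and called none of the 10 genes and 1.21% of all genes. The smallest adjusted p was that of Fcna (0.128), and 5 of the 10 had an unadjusted p under 0.05 (14% of all genes). DESeq2 called Fcna and Vsig4 (678 genes in all), as did edgeR without DC-101 replicate 1 (241). Limma voom called none of the 10 and 672 genes in all.

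**Figure D4:**
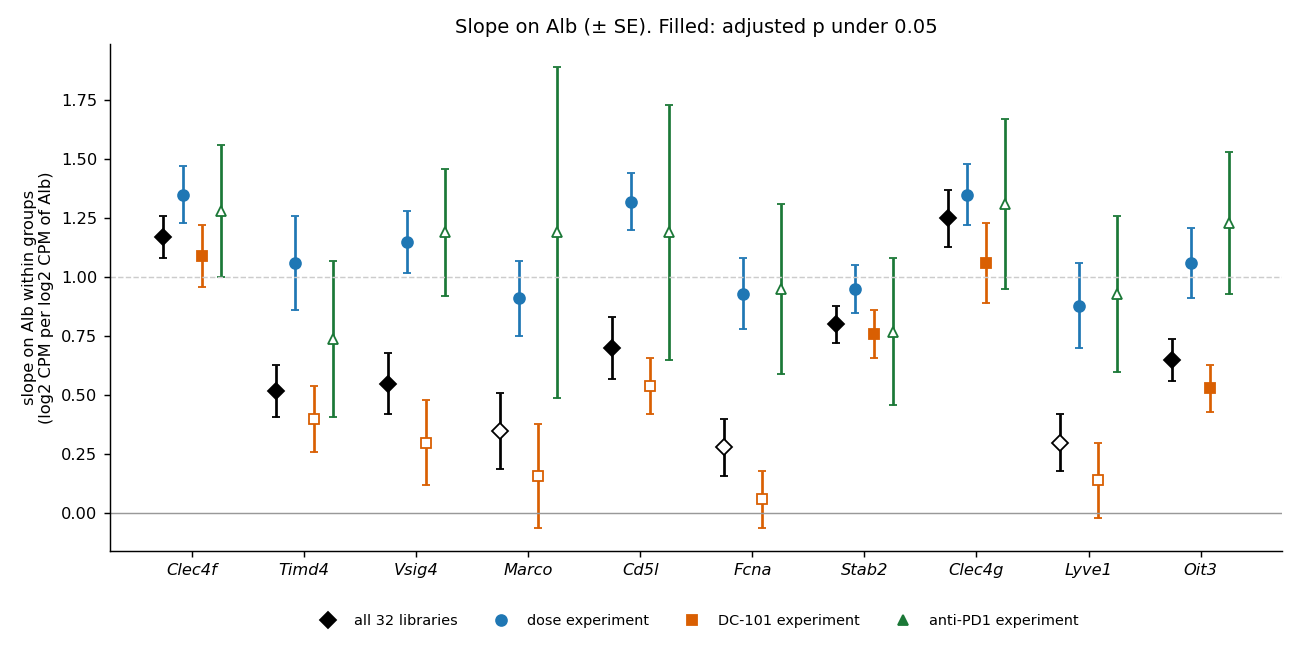
Slope on Alb (log2 CPM per log2 CPM of Alb, ± SE) of each gene over all 32 libraries (diamonds) and in the dose (circles), DC-101 (squares) and anti-PD1 experiment (triangles). Symbols are filled where the adjusted p is under 0.05. Clec4f lies between 1.09 and 1.35 and Stab2 between 0.76 and 0.95 in the 3 experiments, whereas Fcna runs from 0.06 in the DC-101 to 0.95 in the anti-PD1 experiment.

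No comparison of treatments called any of the 10 genes at an adjusted p under 0.05 by edgeR or limma voom. In the dose experiment, the low dose called none of 16525 genes (0%, edgeR, with 817 at an unadjusted p under 0.05), and none of the 10 had an unadjusted p under 0.05, nor did DESeq2 call a member. Their median log2 change was 0.47 (0 for all genes). With Alb as a term of the fit it turned to -1.06 (-0.03 for all genes), with 9 of the 10 lower. None of the 10 passed the adjusted threshold there, against 0.0121% of genes. The high dose called 15.6% of genes and none of the 10. Their log2 changes at the high dose ran from -0.18 (Lyve1, SE 0.97) to 1.84 (Fcna, SE 0.99, adjusted p = 0.196), with a median of 1.03 against 0.02 for all genes. Fcna was 1.47, 1.67, 1.71 and 3.03 log2 CPM in the vehicle and 4.71, 4.21 and 0.34 in the high dose libraries. The low value was that of high dose replicate 3. Without that library Fcna was the 1 member called, in a fit that called 7030 genes. Between the high and the low dose, 4.22% of genes passed and none of the 10.

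Alb itself was 9.31 to 11.12 log2 CPM in the vehicle and 10.71 to 14.77 in the high dose libraries. With Alb as a term of the fit, all 10 genes were lower at the high dose, with a median log2 change of -2.65 (-0.03 for all genes). Only replicate 3 of the high dose libraries lay within the vehicle range of Alb, so the fit extends the slope past that range. Dose and Alb cannot be fully told apart in it. Cd5l (-3.47, SE 0.49, adjusted p = 0.0244) and Clec4f (-3.23, SE 0.49, adjusted p = 0.0278) passed, against 0.599% of genes. Both were also lower than at the low dose, with a log2 change of -1.91 for Cd5l (adjusted p = 0.044) and -2.24 for Clec4f (adjusted p = 0.0313), in a fit that called 3.85% of genes. High dose replicate 2 showed this, with 3.77 log2 CPM of Clec4f at an Alb of 12.78, against 5.13 in vehicle replicate 4 at an Alb of 11.12. Of 12 general macrophage genes, 9 were lower at the high dose past the threshold, led by Itgam (-2.8, adjusted p = 0.0143), Fcgr1 (-1.85, 0.0236) and Ctss (-1.49, 0.0302). The summed level of that list was 1100 to 2670 CPM at the high dose and 3310 to 5440 CPM in vehicle. The peritoneal macrophage list summed to 34.3 to 111 CPM at the high dose and 12.5 to 44.1 CPM in vehicle, and of its 5 genes Gata6 was higher (2.77, adjusted p = 0.044) and Icam2, which endothelium carries too, lower (-1.69, adjusted p = 0.0499). The part of either list in the levels of the 10 genes was not tested.

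In the anti-PD1 experiment, where all comparisons with vehicle share the same 3 vehicle libraries, all 10 genes had negative log2 changes in each treated group. Lyve1 was 5.23, 6.23 and 6.89 log2 CPM in the vehicle, 2.91, 2.32 and -1.32 in the low dose, 1.7, 2.46 and 3.82 in the anti-PD1 and 2.96, 3.12 and 3.16 in the combination libraries. No treated library reached the lowest vehicle library. Vsig4 was 4, 4.73 and 5.48 in vehicle, 1.73, 1.79 and -1.49 at the low dose, -0.93, 0.21 and 2.24 with anti-PD1 and 2.56, 2.18 and 2.38 with the combination, again without overlap. The log2 change of Lyve1 was -4.18 at the low dose (SE 0.9, adjusted p = 0.246), -3.35 with anti-PD1 (SE 0.87, 0.249) and -3.19 with the combination (SE 0.86, 0.469). That of Vsig4 was -3.65 (SE 0.92, adjusted p = 0.246), -3.82 (SE 0.93, 0.249) and -2.5 (SE 0.87, 0.504).

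At the low dose, 8 of the 10 genes had every treated library below every vehicle library, as had 7.36% of all genes, and the other 2 were Timd4 and Fcna. All 10 had an unadjusted p under 0.05 in that direction, against 6.95% of genes. Their median log2 change was -3.33 (0.03 for all genes). None passed after adjustment by edgeR, nor did any of 16615 genes (0%, 1964 at an unadjusted p under 0.05). DESeq2 called 5 of the 10, namely Cd5l, Fcna, Lyve1, Stab2 and Vsig4, and 425 genes in all. It gave no adjusted p for Marco in this experiment's comparisons with vehicle. Without vehicle replicate 3 the median was -2.78, with Cd5l at -2.78 instead of -5.2 and Marco at -2.91 instead of -5.4.

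With anti-PD1, 7 of the 10 did not overlap vehicle (9.2% of genes lay wholly below vehicle), and 8 had an unadjusted p under 0.05 (8.78% of genes). None passed after adjustment, nor did any other gene (0%, 2269 at an unadjusted p under 0.05). DESeq2 called Cd5l, Fcna, Lyve1, Timd4 and Vsig4 among 614 genes, and gave no adjusted p for Marco. Marco was at 38, 39 and 596 counts in vehicle and at 0, 1 and 1 with anti-PD1, a ratio of the pooled CPM of 313 (exact 95% interval 86.4 to 2590, counting error only). Without vehicle replicate 3 this ratio was 54.1 (14.5 to 455). The median log2 change of the 10 was -3.08, also with Marco at its interval bound, against -0.06 for all genes. Without vehicle replicate 3 it was -2.3, with Cd5l at -1.73 instead of -4.15.

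With the combination, 4 members did not overlap vehicle (Marco, Fcna, Lyve1 and Vsig4; 8.12% of genes) and 5, these and Cd5l, had an unadjusted p under 0.05 (4.49% of genes). Again no gene passed by edgeR (0%, 1362 unadjusted). DESeq2 called Fcna and Lyve1 among 150 genes, and gave no adjusted p for Marco. The median was -2 (-0.05 for all genes), and -1.18 without vehicle replicate 3, where Cd5l was at -0.65 instead of -3.07 and Marco at -2.58 instead of -5.08. Clec4f was at -0.52 (SE 0.89), Clec4g at -0.87 (SE 0.99) and Timd4 at -0.86 (SE 0.75). Combination against anti-PD1 gave no call (0%, 1443 unadjusted), and DESeq2 called no member. Timd4 was -1.23, -0.69 and 0.57 with anti-PD1 and 1.36, 1.17 and 2.09 with the combination (log2 change 1.95, SE 0.8, adjusted p = 0.533). Marco was at 0, 1 and 1 against 8, 5 and 8 counts (2.97, SE 1.65, adjusted p = 0.662).

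Alb moved with these changes. It was 12.39 to 12.58 log2 CPM in vehicle, 8.58 to 11.04 at the low dose, 8.13 to 10.54 with anti-PD1 and 10.67 to 12.36 with the combination. The Alb of every treated library lay below that of every vehicle library, so treatment and Alb cannot be told apart here. With Alb as a term of the fit, the median log2 change of the 10 was -1 at the low dose, -0.67 with anti-PD1 and -0.78 with the combination, and none passed. At the low dose Clec4f was then at 0.1 (SE 0.77) and Oit3 at 0.35 (SE 0.91), whereas Lyve1 was at -2.31 (SE 0.97, adjusted p = 0.928). In the combination Fcna was at -2.44 (SE 0.96) and Lyve1 at -1.92 (SE 0.82). The peritoneal macrophage list moved in the same direction, with 20.8 to 182 CPM in vehicle, 12.2 to 20.7 at the low dose, 11.4 to 15.9 with anti-PD1 and 19.4 to 45.7 with the combination. Of its 4 genes tested here, Icam2, which endothelium carries too, had the smallest p at the low dose (-1.76, adjusted p = 0.246, edgeR). General endothelial genes also had negative medians, of -1.04 at the low dose, -0.66 with anti-PD1 and -0.65 with the combination. None of those 12 passed. The part of Alb, of peritoneal macrophages and of endothelium in general in the changes was not tested.

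**Figure D5:**
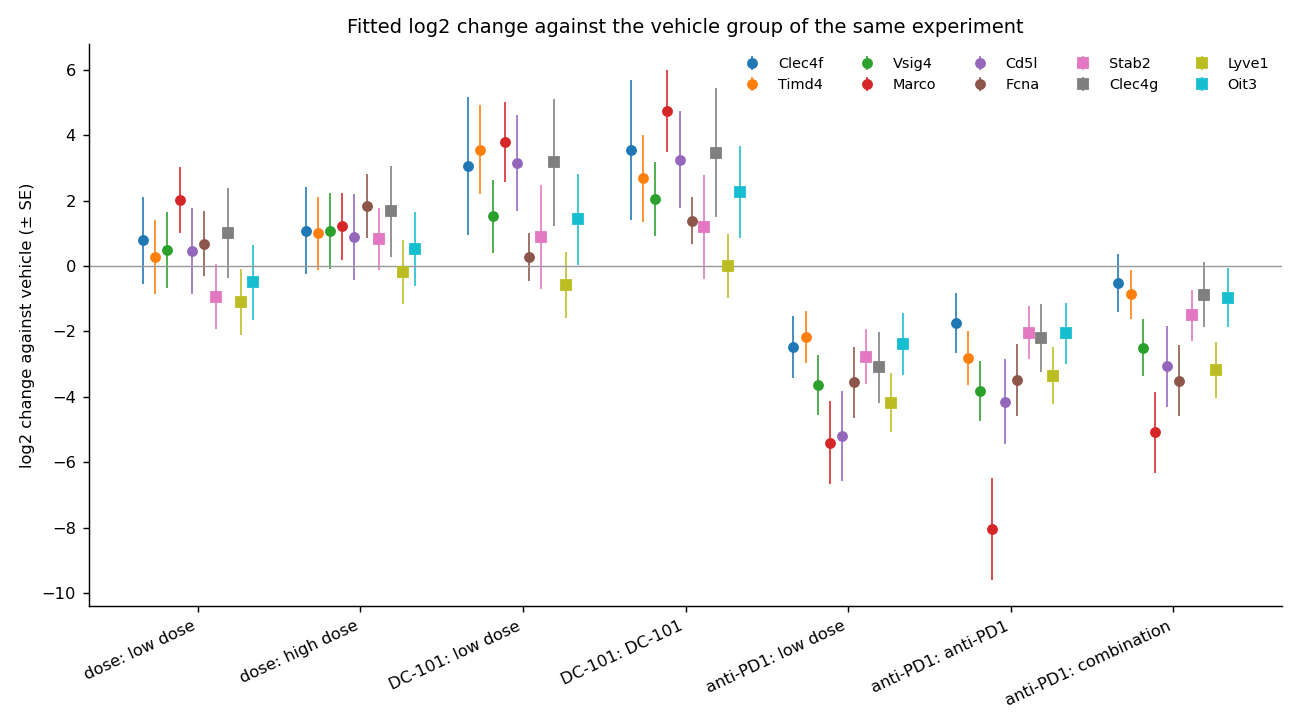
Fitted log2 change (± SE) of the 10 genes against the vehicle group of the same experiment, circles for Kupffer cell and squares for sinusoid genes. Comparisons within an experiment share their vehicle libraries. Median changes are -3.33, -3.08 and -2 in the anti-PD1 experiment and 2.3 and 2.47 in the DC-101 experiment. No change passed an adjusted p of 0.05.

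In the DC-101 experiment, where both comparisons with vehicle share its 4 libraries, 9 of the 10 log2 changes were positive at the low dose and with DC-101, all but that of Lyve1 (-0.58 and -0.01). Marco was -1.71, -2.59, -2.1 and -0.9 log2 CPM in vehicle (5, 2, 3 and 10 counts) and 0.59, 2.36 and 1.64 at the low dose, where every library was above vehicle (log2 change 3.8, SE 1.23, adjusted p = 0.188). Timd4 was -1.34, -2.98, 0.63 and -3.52 in vehicle and 1.27, 2.69 and 2.86 at the low dose, also without overlap (3.56, SE 1.35, adjusted p = 0.239). These 2 of the 10 members stood against 6.93% of all genes that lay wholly above vehicle. The median log2 change of the 10 was 2.3 (0.01 for all genes), none of the 10 passed, and 0.0248% of genes did. DESeq2 called Marco among 1097 genes.

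DC-101 gave a median of 2.47 (-0.01 for all genes), with overlapping groups for all 10 genes. Without DC-101 replicate 1 the median was 3.07, and none passed. Marco, at -1.72, 4.04 and 0.94 log2 CPM, had the largest log2 change of the 10 (4.75, SE 1.26, adjusted p = 0.309). No gene passed by edgeR (0%, 2131 unadjusted), and DESeq2 called Marco among 373 genes. Between the low dose and DC-101 no gene passed (0%, 1364 unadjusted), DESeq2 called no member, and the median difference of the 10 was -0.5. Alb was 3.47 to 11.38 log2 CPM in vehicle, 9.09 to 12.87 at the low dose and 4.54 to 13.53 with DC-101. With Alb as a term, the median changes were 0.28 and 0.4, with Marco at 3.06 at the low dose and 3.59 with DC-101.

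Over the 3 experiments together, the low dose called 1.48% of genes and none of the 10, whose median log2 change was 0.15 (0.03 for all genes). It was -0.2 when the DC-101 experiment's vehicle replicate 2 was left out, -0.14 without replicate 4 and -0.08 without replicate 1, so its sign rested on these libraries. Limma voom and DESeq2 called none of the 10 either. Lyve1 came nearest (-1.7, SE 0.69, adjusted p = 0.233), and was the 1 member with an unadjusted p under 0.05, against 15.6% of all genes. Marco passed when the anti-PD1 experiment was left out, in a fit that called 437 genes. Whether the low dose acted unequally in the 3 experiments was tested by an F-test, which called no gene (0%, 1692 unadjusted) and so none of the 10. Of the 10, 7 had an unadjusted p under 0.05, against 9.82% of all genes, led by Marco (adjusted p = 0.378), Cd5l (0.403) and Vsig4 (0.414). DESeq2 called these 3 among 124 genes. With Alb as a term, Stab2 was lower at the low dose over the 3 experiments (-1.51, SE 0.35, adjusted p = 0.0391), in a fit that called 1.24% of genes. Lyve1 was at -2.44 (SE 0.68, adjusted p = 0.0839). The median log2 change of the 10 turned to -1.24 in that fit (0.02 for all genes), with 9 of them lower. Genes of endothelium in general were lower as well: without the Alb term, 9 of 12 passed in that direction at the low dose over the 3 experiments (median -1.21), led by Cldn5 (-2.44, adjusted p = 0.000121) and Esam (-1.38, 0.000138), both of cell junctions, and Cdh5 (-1.24, 0.00353), the gene of VE-cadherin. The part of endothelium in general in the values of Stab2 and Lyve1 was not tested.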

How the data were processed

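RNA of mouse liver tumours was sequenced as 32 stranded mRNA libraries. The authors trimmed reads with cutadapt 2.4, aligned them to GRCm38 with STAR 2.7.2a and let it count reads per Gencode gene, and the deposited values are these raw counts. The strand column taken is not given in the sources used here. Of 54446 genes, 54409 had an identifier in a Gencode annotation of that build.

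Counts were scaled by TMM within each experiment and tested with edgeR 4.0.16 (R 4.3.3) by the robust quasi-likelihood F-test, 2-sided, after filterByExpr (minimum count 10, total 15), with Benjamini-Hochberg adjustment over all genes and a threshold of 0.05. SE is the log2 change divided by the root of F. Log2 CPM used a prior count of 2. The slope on Alb came from fits with group terms, with Alb left out of the tested genes. Up to 3 counts were taken as the floor, and intervals cover counting error only. The code was tested on simulated data.

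The members and all gene lists were chosen with earlier results of these data known. Besides the 10 members and Alb, named genes were at most the 3 with the smallest adjusted p past the threshold for each list, comparison and direction, otherwise the gene with the smallest p, and the 5 genes nearest to Clec4f and to Stab2. Exceptions are named as such, or complete a count of at most 5. One gene that the rule would name is not reported here. Replicate numbers were not taken as pairs in the main fits, but pairing was not excluded. Deviations of same-numbered libraries from their group means had r over 0.1 in 2 of 9 pairs in the dose experiment (highest 0.56). In the DC-101 experiment it was 4 of 9 (highest 0.67), and in the anti-PD1 experiment 6 of 18 (highest 0.62). Libraries of a group differed beyond sampling noise (chi-square per degree of freedom 12.9 to 834.2 over 36 pairs). Alternatives were DESeq2 1.42.0, limma 3.58.1 (voom), RLE and total count scaling, no filter, a replicate block, Alb as a covariate, a hepatocyte score in place of Alb, and fits without each library or experiment.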

Additional observations from a re-analysis of the deposited data

Results flagged for a closer look

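Of 22 sets of 4 vehicle values examined, for the 10 genes and Alb, 2 had a library far from the others, where chance flags about 1 set in 20. Clec4f was 3.89 log2 CPM in replicate 3 of the DC-101 experiment's vehicle group, and between -2.98 and -2.5 in the other 3. That library also had the highest Alb of its group (11.38 log2 CPM). Fcna was 3.03 log2 CPM in vehicle replicate 4 of the dose experiment, against 1.47, 1.67 and 1.71, and this library too had the highest Alb of its group (11.12 log2 CPM).

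Marco moved in opposite directions at the low dose in 2 experiments. Every low dose library was above every vehicle library in the DC-101 experiment (log2 change 3.8) and below every vehicle library in the anti-PD1 experiment (-5.4). The F-test of the difference over the 3 experiments gave an adjusted p = 0.378 (edgeR), and DESeq2 called it. Vehicle replicate 3 of the anti-PD1 experiment held 596 of the 673 Marco counts of its group, and without it the change there was -2.91.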

How the results depend on the processing

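Counts below are of the 10 genes past an adjusted p of 0.05. Where edgeR called 0 of them, DESeq2 called 5 for the low dose in the anti-PD1 experiment (425 genes in all) and 5 for anti-PD1 (614). It called 2 for the combination (150), and Marco for the low dose in the DC-101 experiment (1097) and for DC-101 (373). For the low dose differing between experiments it called 3 (124), and for the slope differing 2 (678). For the Alb slope in the anti-PD1 experiment it called 5 (348). Over all genes edgeR called 0, 0, 0, 4, 0, 0, 217 and 5 in this order. In the anti-PD1 experiment DESeq2 gave no adjusted p for Marco against vehicle. With Alb as a covariate 2 were called at the high dose (99 genes in all) and 2 between high and low dose (636). Stab2 was the 1 called in that setting for the low dose over 3 experiments (213). In the anti-PD1 experiment Clec4f (0.1) and Oit3 (0.35) at the low dose and Oit3 (1.24) with anti-PD1 then changed sign. Without the anti-PD1 experiment 1 (Marco) was called for the low dose over 3 experiments, in a fit that called 437 genes. The slope in the DC-101 experiment called 7 without the 2 libraries farthest in Alb (618 genes in all, 590 in the main fit). That in the anti-PD1 experiment called 2 with no filter (98 genes in all) and Clec4g on the hepatocyte score (303), against 5 genes in the main fit.

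Leaving out single libraries gave 0 to 1 calls at the high dose, 6 to 8 for the slope over 3 experiments, 9 to 10 in the dose, 2 to 5 in the DC-101 and 0 to 1 in the anti-PD1 experiment, and 0 to 2 for the slope differing. Over all genes these ranges were 15 to 7030, 1179 to 1575, 1398 to 5319, 346 to 748, 0 to 224 and 1 to 624, in the same order. Leaving out a library gave 0 of the 10 in every other comparison of treatments. Oit3 lost its DC-101 slope call without any of 6 libraries (0.47 to 0.54). With the replicate block the slope in the DC-101 experiment called 1 (Clec4f, 200 genes in all) and that over 3 experiments 6, without Timd4 (0.48, adjusted p = 0.145). The block called 0 of the 10 in each comparison of treatments. The causes were not tested.

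Over all genes, the high dose called 2582 genes, but 5275 by DESeq2, 282 by total counts, 416 with no filter, 1 with the replicate block, and 15 to 7030 without single libraries. Total count scaling shifted the median gene by -0.16 at the high dose and by -0.15 between the doses. Of 1274 values of members and nearest genes under alternatives, 1228 kept their direction and their side of the threshold. The low counts of Marco, Timd4 and Clec4g limit their precision.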
